A study of Mus musculus with 6 samples.

Results

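The 80 genes described here encode collagens, laminin chains, integrin chains and 5 further proteins of the basement membrane, out of 18283 genes in the count table of a study of mouse cortex. They were chosen by symbol: every gene whose symbol has the form of a collagen alpha chain, a laminin chain or a numbered integrin chain, together with Nid1, Nid2, Hspg2, Sparc and Agrn. This gave 44 collagen chains, 11 laminin chains and 20 integrin chains, 12 of them alpha and 8 beta. They were read in 5 classes: 15 genes of the vessel basement membrane, 9 other basement membrane chains, 11 fibrillar collagens, 25 other collagens and 20 integrins. The rule reads symbols only, although it was set with earlier results of these data known. Integrins with a letter in place of the number, such as Itgav, fall outside it.

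The study compared 3 libraries of cortex that received AAV-GFP-GA with 3 libraries of cortex that received AAV-GFP, all from wild-type mice and with 5 months as the labelled time. AAV, adeno-associated virus, served as the vector, GFP is green fluorescent protein, and GFP-GA is GFP joined to poly-GA, the glycine-alanine dipeptide repeat made from the expanded C9orf72 repeat of amyotrophic lateral sclerosis and frontotemporal dementia. By its title, the study concerns how the microglial receptor TREM2 clears poly-GA and how the NLRP3 inflammasome takes part. The labels do not give the promoter or serotype of the vector, the cells it reached, the route of injection, the age or sex of the animals, or whether the time counts from birth or from injection. They also do not say whether each library is a separate animal, so the p-values measure the spread between these libraries, which may be technical. The transgene itself was not analysed here.

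A basement membrane is a thin sheet of matrix under the endothelium of every vessel, around pericytes, and at the brain surface, where the end-feet of astrocytes meet it. Laminins, which are trimers of an alpha, a beta and a gamma chain, and type IV collagen each form a network; nidogens and the proteoglycan perlecan, the product of Hspg2, link the networks. Fibrillar collagens form the fibres of connective tissue, which in the brain lies mainly in the meninges and around large vessels. Integrins are receptors of an alpha and a beta chain that bind these proteins at the cell surface and connect them to the actin skeleton.

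The libraries held 16748754 to 17576017 expected counts, and the 80 genes took 0.111% to 0.119% of them. Summed markers of neurons lay between 10120 and 11030 CPM, counts scaled to a common library size, in AAV-GFP-GA cortex and between 10400 and 10420 CPM in AAV-GFP cortex, so the labelled tissue showed the expression of brain. Some libraries differed within a group. The 4 Y-linked genes together lay between 115.8 and 118.0 CPM in AAV-GFP-GA cortex and were at 132.8, 135.7 and 0.0577 CPM in AAV-GFP replicates 1, 2 and 3. Markers of the choroid plexus, the epithelium that makes cerebrospinal fluid, summed to 471.4, 553.9 and 45.8 CPM in AAV-GFP-GA cortex, against 1150, 243.6 and 594.5 CPM in AAV-GFP cortex. Markers of intestinal epithelium were low everywhere, at 11.2, 12.8 and 15.2 CPM in AAV-GFP-GA cortex and 6.40, 4.42 and 12.7 CPM in AAV-GFP cortex, with Cdx1 at 0 in every library.

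None of the 80 genes passed the test for a difference between AAV-GFP-GA and AAV-GFP cortex. Of the 80, 75 had enough reads to be tested, and edgeR's quasi-likelihood test with Benjamini-Hochberg adjustment over all 14324 tested genes called 0 of them at an adjusted p under 0.05, where it called 3 genes or 0.0209% of all tested. DESeq2 called 0 of the 75, against 0.0698% of all tested genes, and limma-voom 0, against 0.0209%. The lowest adjusted p among them was 0.742. Log2 fold changes are given as AAV-GFP-GA over AAV-GFP, with their standard error after ±. At an unadjusted p under 0.05 there were 5 of the 75, or 6.67%, against 6.64% of all tested genes, a share near the background. The 3 with higher values in AAV-GFP-GA cortex were the laminin chain Lama2 and the integrin chains Itga1 and Itgb5, and the 2 with lower values were Sparc and the fibrillar collagen Col11a1. Over all tested genes the shares were 3.19% higher and 3.45% lower. DESeq2 gave 2 higher and 2 lower of the 75, against 4.23% of all tested genes in both directions together, and limma-voom 3 higher and 2 lower, against 6.52%. The count depended on single libraries: it was 8 of 76 without AAV-GFP-GA replicate 1, against 4.33% of all genes tested there, 10 of 75 without AAV-GFP replicate 1, against 5.47%, and 12 of 75 without AAV-GFP replicate 3, the library nearly without Y-linked reads, against 19.8%.

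The 95% intervals were narrow for most genes, although they reflect only the spread between these libraries, which may be technical. A 95% interval stayed inside 2-fold both ways for 64 of the 75 genes and inside 1.5-fold for 44, including 13 of the 15 vessel basement membrane genes. The 11 whose interval reached past 2-fold had low counts, each with a mean of at most 2.66 CPM over all libraries, such as Col10a1, a collagen of growth-plate cartilage, with an interval from -2.23 to 0.50 on the log2 scale. For 9 of the 75, or 12%, the 3 values of AAV-GFP-GA cortex did not overlap the 3 of AAV-GFP cortex, against 11.9% of all tested genes. The values of AAV-GFP-GA cortex lay above in Lama2, Lamb2, Itga6, Itga11 and Itgb5 and below in Sparc, Col11a1, Col27a1 and Itga2b. Over all tested genes, 6.09% lay above and 5.79% below in this way.

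**Figure D1:**
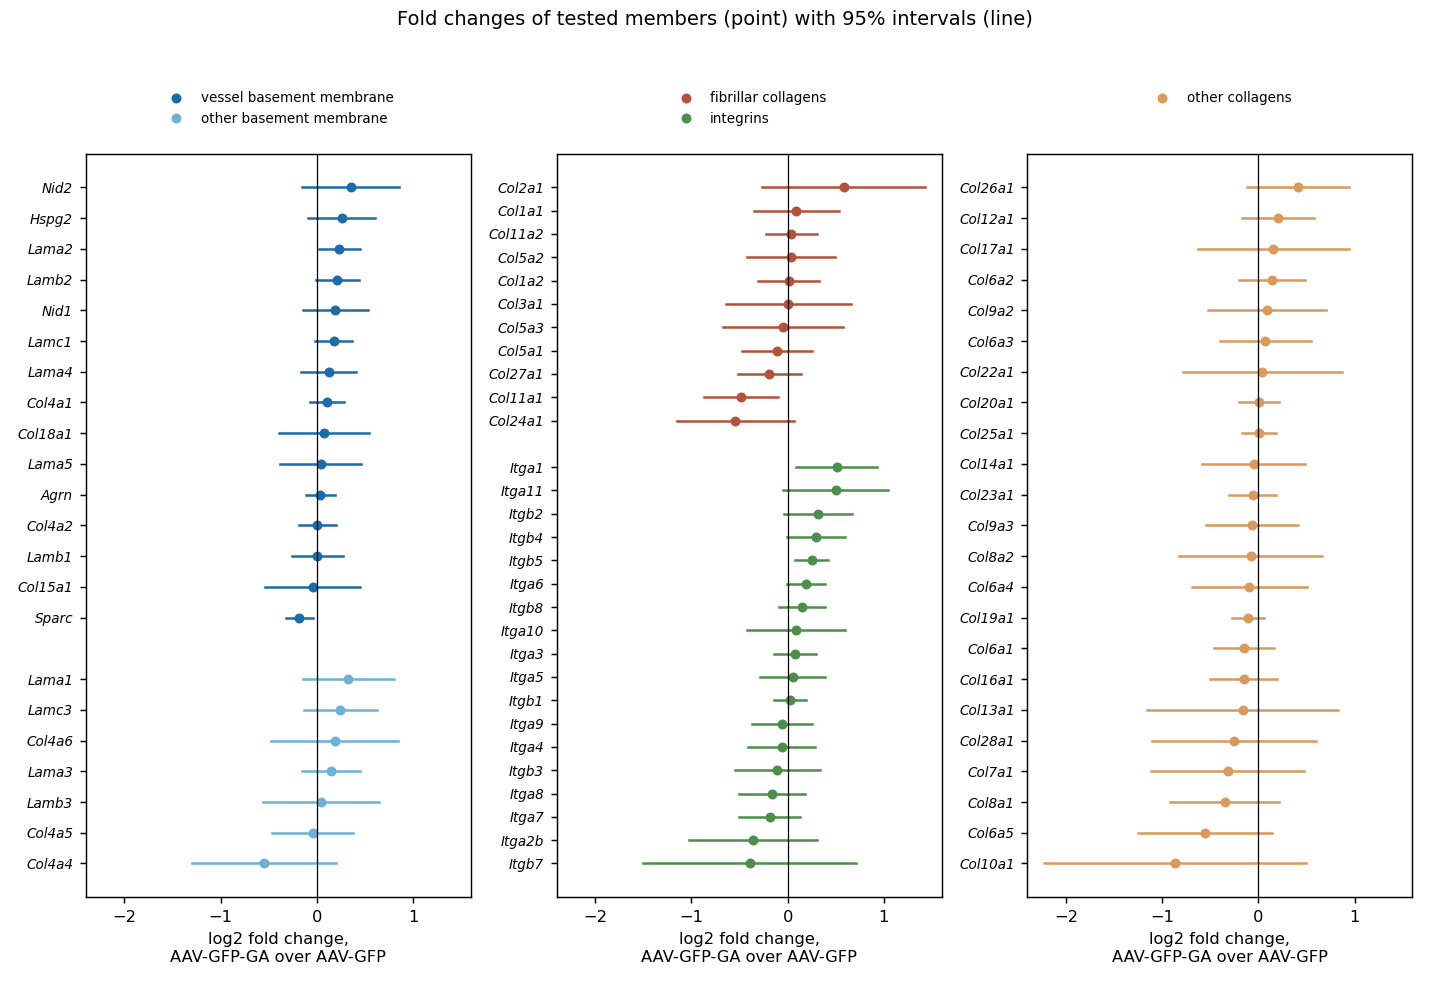
Log2 fold change of AAV-GFP-GA over AAV-GFP for 74 of the 75 tested genes (point) with its 95% interval (line), by class; the vertical line marks no difference. Most points of the vessel basement membrane lie right of 0 at small values, those of the fibrillar and other collagens lie on both sides, and the intervals of Lama2, Itga1, Itgb5, Sparc and Col11a1 leave out 0.

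Promoters were considered for genes with an unadjusted p under 0.05 by edgeR and groups that did not overlap. That of Itgb5 is shown because only its window was clear of its own gene and of any annotated UTR. The 250 bases before the start that RefSeq gives on GRCm38.p6, the build also called mm10, are printed 5′ to 3′. Capitals mark each CACCC or GGGCGG on either strand, so that they also read GGGTG or CCGCCC. The window lies at chr16:33829415-33829664 on the plus strand. The windows of Lama2, Col11a1 and Sparc, whose groups also did not overlap, reach into their own genes or a UTR as annotated and are not printed.
Itgb5: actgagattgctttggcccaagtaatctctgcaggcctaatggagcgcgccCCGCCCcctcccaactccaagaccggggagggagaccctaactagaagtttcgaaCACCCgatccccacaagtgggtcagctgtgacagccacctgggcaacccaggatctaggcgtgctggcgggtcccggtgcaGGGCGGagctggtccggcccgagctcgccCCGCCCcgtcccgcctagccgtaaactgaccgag
CACCC is the core bound by Krüppel-like factors and GGGCGG that of Sp1. Itgb5 holds CACCC 1 time and GGGCGG 3 times.

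The vessel basement membrane genes differed little and mostly leaned above 0. Of the 15 genes, all tested, 13 had a log2 fold change above 0, with a median log2 fold change of 0.10, against 48.6% of all tested genes above 0 and a median of -0.0039. Their sum was 549.1, 573.2 and 551.9 CPM in AAV-GFP-GA cortex, against 572.9, 557.8 and 570.9 CPM in AAV-GFP cortex, with Sparc as its largest part. Without Sparc, the sum was 329.8, 344.0 and 318.6 CPM in AAV-GFP-GA cortex, against 319.2, 282.3 and 327.4 CPM in AAV-GFP cortex. Both sums overlapped between the groups, with the mean lower in AAV-GFP-GA cortex for all 15 genes and higher without Sparc, where AAV-GFP replicate 2 was the lowest. Without AAV-GFP replicate 2, the median was 0.02 and 9 of the 15 lay above 0.

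Lama2 had the lowest p of the laminin chains. Lama2 (Entrez gene 16773, chr10:26981285-27617191), the alpha chain of the laminin that astrocytes and pericytes lay down and the gene of merosin-deficient muscular dystrophy, had 15.2, 17.8 and 17.1 CPM in AAV-GFP-GA cortex, against 15.1, 13.3 and 14.1 CPM in AAV-GFP cortex. All 3 values of AAV-GFP-GA cortex lay above those of AAV-GFP cortex, although replicate 1 of each group differed by little. Its log2 fold change was 0.23 ± 0.10 (SE), with an unadjusted p of 0.0337 and 0.742 after adjustment, by edgeR. The unadjusted p was under 0.05 in 3 of the 6 fits that left out 1 library, the fold change in these fits lay between 0.18 and 0.30, and DESeq2 gave an unadjusted p of 0.0857.

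The other vessel alpha chains come from endothelium. Lama4, the alpha chain of the endothelial laminin found along all vessels, had 9.39, 9.81 and 8.77 CPM in AAV-GFP-GA cortex, against 9.69, 7.23 and 8.77 CPM in AAV-GFP cortex, a log2 fold change of 0.12 ± 0.13. Lama5, whose laminin is patchy along capillaries and dense in arterioles, had 9.39, 10.5 and 7.1 CPM in AAV-GFP-GA cortex, against 9.21, 6.52 and 10.5 CPM in AAV-GFP cortex, a log2 fold change of 0.04 ± 0.19. The groups overlapped in both genes, and AAV-GFP replicate 2 was the lowest library in both.

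Of the shared beta and gamma chains, Lamb1, the beta chain of most brain laminins, had 18.6, 19.3 and 16.0 CPM in AAV-GFP-GA cortex, against 20.5, 18.2 and 15.1 CPM in AAV-GFP cortex, with a log2 fold change of 0.0037 ± 0.1200 and overlapping groups. Lamb2, a beta chain of mature vessels, had 26.3, 28.0 and 26.2 CPM in AAV-GFP-GA cortex, against 24.4, 19.5 and 25.5 CPM in AAV-GFP cortex. The values of AAV-GFP-GA cortex all lay above those of AAV-GFP cortex, with the widest gap to AAV-GFP replicate 2, and the log2 fold change was 0.21 ± 0.10, with an unadjusted p of 0.0588. Lamc1, the gamma chain that nearly every laminin of vessels contains, had 39.4, 47.0 and 42.9 CPM in AAV-GFP-GA cortex, against 38.5, 35.0 and 40.9 CPM in AAV-GFP cortex; here the groups overlapped, since replicate 3 of AAV-GFP lay above replicate 1 of AAV-GFP-GA. The log2 fold change was 0.18 ± 0.09, with an unadjusted p of 0.0691. All 11 laminin chains of the table had a log2 fold change above 0, with a median of 0.18, and 9 of the 11 did so without AAV-GFP replicate 2, where the median was 0.11.

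The type IV collagen chains of the vessel overlapped between the groups. Col4a1, one of the chains of the vessel trimer and a gene of small vessel disease, had 30.6, 28.6 and 26.7 CPM in AAV-GFP-GA cortex, against 26.3, 25.8 and 27.8 CPM in AAV-GFP cortex, a log2 fold change of 0.10 ± 0.08. Col4a2, its partner in the trimer, had 31.5, 27.6 and 26.3 CPM in AAV-GFP-GA cortex, against 27.4, 27.4 and 30.2 CPM in AAV-GFP cortex, a log2 fold change of 0.0060 ± 0.0884. Replicate 1 was the highest of the AAV-GFP-GA libraries in both. These genes lie head to head on chromosome 8, Col4a1 on the minus strand at chr8:11198423-11312889 and Col4a2 on the plus strand at chr8:11312805-11449287, and are read outward from a shared promoter. The gene spans above share chr8:11312805-11312889. Printed here is only a part of it, chr8:11312805-11312826, where the first exons overlap when transcripts begin at the starts from RefSeq. It is shown on the plus strand, because it is unknown which strand setting the counting used. Either gene could thus have received reads from the shared bases.
Col4a1 and Col4a2 overlap: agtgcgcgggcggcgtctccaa
Per kb of exon, Col4a1 lay at 3.83 CPM per kb in AAV-GFP-GA cortex and 3.57 in AAV-GFP cortex, and Col4a2 at 4.3 CPM per kb in AAV-GFP-GA cortex and 4.29 in AAV-GFP cortex. The levels of the pair were close in both groups.

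The collagens that carry endostatin-like ends were low. Col18a1, whose fragment endostatin restrains vessel growth, had 4.29, 5.19 and 3.58 CPM in AAV-GFP-GA cortex, against 4.79, 3.05 and 4.56 CPM in AAV-GFP cortex, a log2 fold change of 0.07 ± 0.21. Col15a1, a related collagen at the outer face of basement membranes, had 2.92, 4.57 and 4.21 CPM in AAV-GFP-GA cortex, against 3.47, 3.47 and 5.08 CPM in AAV-GFP cortex, a log2 fold change of -0.04 ± 0.22. The values of both overlapped between the groups.

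The proteins that link the networks leaned above 0 without passing the test. Nid1, nidogen 1, which binds laminin and type IV collagen, had 7.44, 9.19 and 8.65 CPM in AAV-GFP-GA cortex, against 8.91, 6.34 and 6.87 CPM in AAV-GFP cortex, a log2 fold change of 0.19 ± 0.15. Nid2, its relative, had 3.55, 4.9 and 3.92 CPM in AAV-GFP-GA cortex, against 4.25, 2.45 and 3.0 CPM in AAV-GFP cortex, a log2 fold change of 0.35 ± 0.23. Hspg2, perlecan, which holds growth factors in the vessel wall, had 9.67, 11.6 and 11.8 CPM in AAV-GFP-GA cortex, against 10.9, 6.99 and 9.76 CPM in AAV-GFP cortex, a log2 fold change of 0.26 ± 0.16. In all 3 genes the groups overlapped and AAV-GFP replicate 2 was the lowest library. Agrn, agrin, a proteoglycan of the brain's vessels and of the neuromuscular junction, had 122, 120.0 and 116 CPM in AAV-GFP-GA cortex, against 116, 107 and 125 CPM in AAV-GFP cortex, with a log2 fold change of 0.04 ± 0.07 and a 95% interval from -0.11 to 0.18.

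Sparc had the lowest p of the members with lower values in AAV-GFP-GA cortex. Sparc (Entrez gene 20692, chr11:55394159-55420080, minus strand) encodes osteonectin, a collagen-binding protein that in brain comes from endothelium and microglia. It had 219, 229 and 233 CPM in AAV-GFP-GA cortex, against 254, 276 and 244 CPM in AAV-GFP cortex, or 227 ± 7.19 CPM in AAV-GFP-GA cortex and 258 ± 16.4 CPM in AAV-GFP cortex (SD, n = 3 each). All 3 values of AAV-GFP-GA cortex lay below those of AAV-GFP cortex. This gave a log2 fold change of -0.18 ± 0.06 (95% interval -0.32 to -0.04), at an unadjusted p of 0.0147 and 0.742 after adjustment, by edgeR. The unadjusted p was under 0.05 in 4 of the 6 fits that left out 1 library; leaving out AAV-GFP-GA replicate 1 gave 0.0672 and leaving out AAV-GFP replicate 2 gave 0.0669. Another fit set AAV-GFP replicates 1 and 2, the libraries with the lowest sums of intestinal markers, apart from the other 4. It thus compared AAV-GFP-GA cortex with AAV-GFP replicate 3 alone, and put Sparc at -0.10 and Lama2 at 0.24 on the log2 scale. That fit gave 7 of the 75 genes an unadjusted p under 0.05, against 6.6% of all tested genes, and called 0 of them, against 0.0628%. The lowest p was that of Col6a1, at a log2 fold change of -0.49, an unadjusted p of 8.96e-04 and an adjusted p of 0.364. The others were Col24a1 at -1.01, Col11a1 at -0.59, Itga1 at 0.81, Itga4 at 0.39, Itgb8 at 0.35 and Col9a2 at 0.80.

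**Figure D2:**
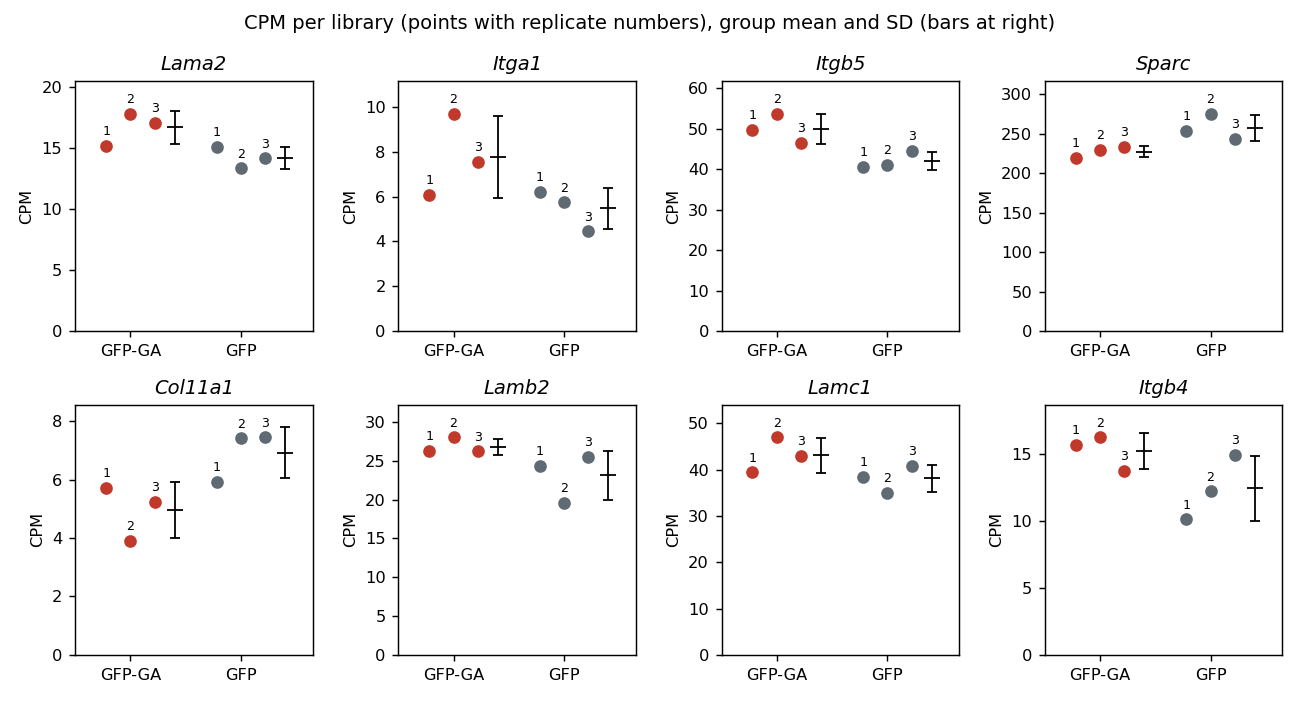
CPM of 8 genes in each library, with AAV-GFP-GA (red, labelled GFP-GA) left of AAV-GFP (grey, labelled GFP), numbers giving the replicate, and bars to the right of each group giving its mean and SD. The groups do not overlap in Lama2, Itgb5, Sparc, Col11a1 and Lamb2 and overlap in Itga1, Lamc1 and Itgb4.

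The vessel pattern depended on AAV-GFP replicate 2. The median of 0.02 without it compares with 0.08 without AAV-GFP-GA replicate 2, where 10 of the 15 lay above 0. The fit that sets AAV-GFP replicates 1 and 2 apart also put 9 of the 15 above 0, with a median of 0.0755. Averaged over the 15 genes, the deviation of log2 CPM from its mean over all 6 libraries was -0.001, 0.166 and 0.001 in AAV-GFP-GA cortex, against 0.052, -0.230 and 0.012 in AAV-GFP cortex. AAV-GFP replicate 2 was the lowest library for 11 of the 15 genes, and AAV-GFP-GA replicate 2 was the highest for 7. Replicates 1 and 3 of both groups lay between -0.001 and 0.052. Markers of endothelium followed the same order at the ends: their 15 genes summed to 413.4, 509.7 and 453.5 CPM in AAV-GFP-GA cortex, against 358.0, 337.2 and 404.8 CPM in AAV-GFP cortex, with none of the 15 at 0. The 3 sums of AAV-GFP-GA cortex lay above those of AAV-GFP cortex. Of these 15, 13 had a log2 fold change above 0, against 48.6% of all tested genes, with a median of 0.25. An unadjusted p under 0.05 by edgeR was found for 5, all higher, against 3.19% of all tested genes. In 7 the groups did not overlap, all higher, against 6.09%. Pericyte markers summed to 198.8, 237.2 and 221.4 CPM in AAV-GFP-GA cortex, against 204.0, 193.3 and 209.0 CPM in AAV-GFP cortex. The part of vessel content in the basement membrane values was not tested, and in bulk tissue fewer cells of a type and less RNA per cell cannot be told apart.

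**Figure D3:**
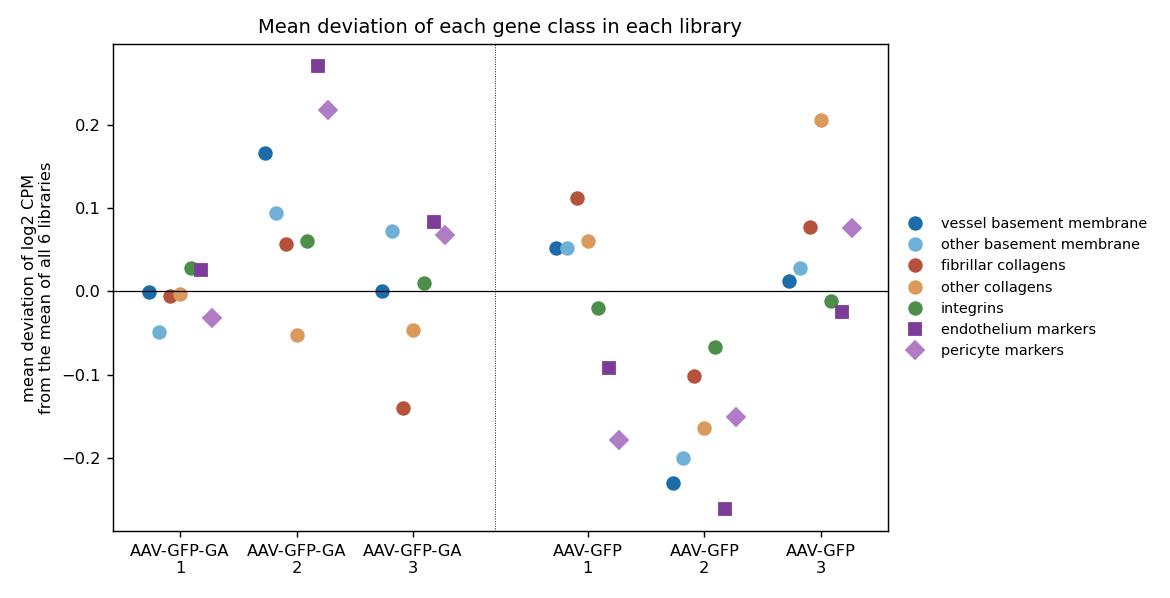
Mean deviation of log2 CPM from the mean of all 6 libraries, for each gene class and for endothelium and pericyte markers, in each library, with AAV-GFP-GA left of the dotted line and AAV-GFP right of it. The vessel basement membrane is at 0.166 in AAV-GFP-GA replicate 2 and -0.230 in AAV-GFP replicate 2, where the endothelium markers also have their highest and lowest values, and near 0 in the other 4 libraries.

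The 9 other basement membrane chains belong mostly to epithelia, kidney or the brain surface. Of the 8 tested, 6 had a log2 fold change above 0, with a median of 0.17, and 0 passed an unadjusted p of 0.05 in edgeR. Lama3, an alpha chain of epithelial laminin, had 7.15, 6.09 and 6.35 CPM in AAV-GFP-GA cortex, against 5.74, 5.44 and 6.47 CPM in AAV-GFP cortex, a log2 fold change of 0.15 ± 0.14, and the groups overlapped. Lamb3, a beta chain of epithelial laminin, lay between 1.14 and 1.85 CPM over all 6 libraries, with a log2 fold change of 0.04 ± 0.27.

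Lama1, the alpha chain of the laminin at the brain surface and around large vessels, had 2.8, 3.61 and 4.21 CPM in AAV-GFP-GA cortex, against 2.39, 3.29 and 2.77 CPM in AAV-GFP cortex, a log2 fold change of 0.33 ± 0.21. Lamc3, a gamma chain with roles in retina and cortical layering, had 4.06, 5.13 and 5.54 CPM in AAV-GFP-GA cortex, against 4.55, 4.0 and 3.87 CPM in AAV-GFP cortex, a log2 fold change of 0.25 ± 0.17. Both overlapped between the groups. Of the type IV chains outside the vessel trimer, which are known from kidney, Col4a5 had 3.83, 3.78 and 2.77 CPM in AAV-GFP-GA cortex, against 4.01, 3.35 and 3.35 CPM in AAV-GFP cortex and a log2 fold change of -0.04 ± 0.19. Col4a6, which faces Col4a5 head to head on the X chromosome, lay between 0.777 and 1.5 CPM and had a log2 fold change of 0.19 ± 0.30. Col4a4 had 0.744, 0.845 and 0.462 CPM in AAV-GFP-GA cortex, against 1.2, 0.837 and 0.981 CPM in AAV-GFP cortex, a log2 fold change of -0.55 ± 0.34, and its neighbour Col4a3 was below the filter with 4, 10 and 8 reads in AAV-GFP-GA cortex and 15, 7 and 16 in AAV-GFP cortex.

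The 11 fibrillar collagens did not lean to either side. A log2 fold change above 0 was found for 6 of the 11 and below 0 for 5, with a median log2 fold change of 0.01. Their sum was 67.4, 68.2 and 61.3 CPM in AAV-GFP-GA cortex, against 73.4, 61.4 and 71.2 CPM in AAV-GFP cortex, and the groups overlapped. Without AAV-GFP replicate 2, 3 of the 11 lay above 0 and the median was -0.11. Markers of fibroblasts and meninges summed to 236.4, 289.9 and 265.1 CPM in AAV-GFP-GA cortex, against 331.4, 243.5 and 245.6 CPM in AAV-GFP cortex, with none of the 15 at 0 and the highest sum in AAV-GFP replicate 1. The same library was the highest for 5 of the 11 fibrillar collagens. The part of meninges in these values was not tested.

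The chains of type I and III collagen, the main fibres of connective tissue, overlapped between the groups. Col1a1 had 7.15, 9.36 and 6.98 CPM in AAV-GFP-GA cortex, against 9.15, 5.2 and 7.74 CPM in AAV-GFP cortex, a log2 fold change of 0.09 ± 0.20. Col1a2, its partner, had 12.2, 14.9 and 14.0 CPM in AAV-GFP-GA cortex, against 16.9, 11.8 and 12.1 CPM in AAV-GFP cortex, a log2 fold change of 0.01 ± 0.14. Col3a1, the collagen of pliable tissues and vessel walls, had 1.83, 3.04 and 1.9 CPM in AAV-GFP-GA cortex, against 3.11, 1.97 and 1.67 CPM in AAV-GFP cortex, a log2 fold change of 0.0080 ± 0.2939. In these 3 genes AAV-GFP replicate 1 was the highest AAV-GFP library.

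Type V collagen sets the width of type I fibres. Col5a1 had 12.1, 8.57 and 8.71 CPM in AAV-GFP-GA cortex, against 12.4, 8.85 and 10.5 CPM in AAV-GFP cortex, a log2 fold change of -0.11 ± 0.17. Col5a2, which lies tail to tail with Col3a1 on chromosome 1, had 2.63, 3.16 and 2.19 CPM in AAV-GFP-GA cortex, against 2.57, 2.81 and 2.42 CPM in AAV-GFP cortex, a log2 fold change of 0.03 ± 0.21. Col5a3 had 1.2, 1.07 and 1.33 CPM in AAV-GFP-GA cortex, against 1.44, 0.897 and 1.39 CPM in AAV-GFP cortex, a log2 fold change of -0.05 ± 0.28. No chain of type V separated the groups.

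Type II and XI collagens are fibres of cartilage and of the eye. Col11a1 (Entrez gene 12814, chr3:114030479-114220756) had 5.72, 3.89 and 5.25 CPM in AAV-GFP-GA cortex, against 5.92, 7.41 and 7.45 CPM in AAV-GFP cortex, or 4.95 ± 0.952 CPM in AAV-GFP-GA cortex and 6.93 ± 0.87 CPM in AAV-GFP cortex (SD, n = 3 each). All 3 values of AAV-GFP-GA cortex lay below those of AAV-GFP cortex, with 5.72 CPM in AAV-GFP-GA replicate 1 next to 5.92 CPM in AAV-GFP replicate 1. Its log2 fold change was -0.48 ± 0.17 (95% interval -0.87 to -0.10), at an unadjusted p of 0.0179 and 0.742 after adjustment, by edgeR. The unadjusted p was under 0.05 in 3 of the 6 fits that left out 1 library. Col11a2, its partner chain, had 16.6, 16.3 and 14.1 CPM in AAV-GFP-GA cortex, against 13.5, 14.4 and 17.8 CPM in AAV-GFP cortex and a log2 fold change of 0.04 ± 0.12. Col2a1 had 0.859, 1.63 and 0.692 CPM in AAV-GFP-GA cortex, against 0.658, 0.777 and 0.693 CPM in AAV-GFP cortex, a log2 fold change of 0.58 ± 0.38 that came mainly from AAV-GFP-GA replicate 2.

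Col24a1 and Col27a1 are fibrillar collagens of bone and cartilage. Col27a1 had 4.35, 4.51 and 4.15 CPM in AAV-GFP-GA cortex, against 5.26, 4.6 and 4.96 CPM in AAV-GFP cortex. The values of AAV-GFP-GA cortex all lay below those of AAV-GFP cortex, with a log2 fold change of -0.19 ± 0.15 and an unadjusted p of 0.228. Col24a1 had 2.75, 1.75 and 2.02 CPM in AAV-GFP-GA cortex, against 2.39, 2.69 and 4.39 CPM in AAV-GFP cortex, with overlapping groups and a log2 fold change of -0.54 ± 0.28, an unadjusted p of 0.0767. AAV-GFP replicate 3 was its highest library, and without it the fold change was -0.22.

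The 25 other collagens include network, bead-forming, membrane-spanning and fibre-associated types. Of the 23 tested, 9 had a log2 fold change above 0 and 14 below, with a median of -0.07, and 0 passed an unadjusted p of 0.05 in edgeR. Col25a1, a membrane-spanning collagen of neurons that is found in amyloid plaques, had 53.5, 51.2 and 53.7 CPM in AAV-GFP-GA cortex, against 53.5, 57.7 and 46.9 CPM in AAV-GFP cortex, a log2 fold change of 0.0030 ± 0.0804 with a 95% interval from -0.17 to 0.18. Col19a1, a collagen of interneurons, had 24.8, 26.3 and 27.9 CPM in AAV-GFP-GA cortex, against 28.6, 27.7 and 28.7 CPM in AAV-GFP cortex, a log2 fold change of -0.11 ± 0.08. Col20a1 had 14.4, 15.0 and 16.5 CPM in AAV-GFP-GA cortex, against 14.7, 14.7 and 16.5 CPM in AAV-GFP cortex, a log2 fold change of 0.0044 ± 0.0941. The groups overlapped in all 3 genes.

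Type VI collagen forms beaded filaments next to basement membranes. Col6a1 had 30.8, 29.5 and 32.0 CPM in AAV-GFP-GA cortex, against 27.0, 32.1 and 43.2 CPM in AAV-GFP cortex, so that the 3 values of AAV-GFP-GA cortex lay among those of AAV-GFP cortex and AAV-GFP replicate 3 stood above the rest. The log2 fold change was -0.15 ± 0.14, and 0.06 without AAV-GFP replicate 3. Col6a2, which lies beside Col6a1 on chromosome 10, lay between 11.4 and 13.8 CPM in AAV-GFP-GA cortex and between 8.43 and 13.2 CPM in AAV-GFP cortex, a log2 fold change of 0.14 ± 0.15. Col6a3 and Col6a4 had log2 fold changes of 0.07 ± 0.21 and -0.09 ± 0.27. Col6a5 had 0.63, 1.24 and 0.808 CPM in AAV-GFP-GA cortex, against 1.2, 1.26 and 1.5 CPM in AAV-GFP cortex, a log2 fold change of -0.56 ± 0.31, and Col6a6 was below the filter with 2, 7 and 2 reads in AAV-GFP-GA cortex and 6, 7 and 0 in AAV-GFP cortex.

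Of the 23 other collagens tested, 10 were highest in AAV-GFP replicate 3 and 4 in AAV-GFP replicate 1, the library with the highest choroid plexus markers. Col8a1, a short-chain collagen of vessel walls and of the cornea, lay between 3.29 and 5.02 CPM in AAV-GFP-GA cortex and was at 7.78, 3.83 and 5.2 CPM in AAV-GFP cortex, with a log2 fold change of -0.35 ± 0.26. Its relative Col8a2 was at 5.03 CPM in AAV-GFP replicate 1 and between 1.91 and 3.66 CPM in the other 5 libraries. Col9a2 and Col9a3, chains of a cartilage collagen, were at 3.95 and 10.8 CPM in AAV-GFP replicate 1, also their highest library. The part of choroid plexus in these 4 genes was not tested. Col9a1, the third chain of that collagen, was below the filter with 3, 9 and 4 reads in AAV-GFP-GA cortex and 7, 6 and 8 in AAV-GFP cortex.

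Col10a1 had the largest fold change of the class and the widest interval, with 0.343, 0.0564 and 0.635 CPM in AAV-GFP-GA cortex, against 0.359, 0.897 and 0.635 CPM in AAV-GFP cortex and a log2 fold change of -0.86 ± 0.62. It had 6, 1 and 11 reads in AAV-GFP-GA cortex, against 6, 15 and 11 in AAV-GFP cortex. Over the fits that left out 1 library its log2 fold change ran from -1.63 to -0.36, with an unadjusted p of 0.0448 by edgeR without AAV-GFP-GA replicate 3. The remaining tested members of the class were Col7a1, Col12a1, Col13a1, Col14a1, Col16a1, Col17a1, Col22a1, Col23a1, Col26a1 and Col28a1. Their log2 fold changes ran from -0.32 in Col7a1, which anchors the skin, to 0.41 in Col26a1, and the groups overlapped in all 10.

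As a class the integrins leaned slightly above 0. Of the 18 tested, 11 had a log2 fold change above 0 and 7 below, with a median log2 fold change of 0.06. The 20 chains summed to 284.7, 298.0 and 291.2 CPM in AAV-GFP-GA cortex, against 280.1, 266.4 and 268.5 CPM in AAV-GFP cortex. All 3 sums of AAV-GFP-GA cortex lay above those of AAV-GFP cortex. The means were 291 ± 6.63 CPM in AAV-GFP-GA cortex and 272 ± 7.4 CPM in AAV-GFP cortex (SD, n = 3 each). This gap was not shared by the class, since with Itgb5 taken out the sums of the groups overlap. The 12 alpha chains summed to 116.2, 118.6 and 116.9 CPM in AAV-GFP-GA cortex, against 117.6, 110.9 and 110.2 CPM in AAV-GFP cortex, and overlapped. The sums of the 8 beta chains, Itgb5 among them, did not. The mean deviation over the 18 genes stayed between -0.066 and 0.060 in all 6 libraries.

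Per kb of exon, Itgb1 was the highest of the beta chains. Itgb1, the common partner of the laminin and collagen receptors, had 68.3, 74.9 and 74.8 CPM in AAV-GFP-GA cortex, against 78.4, 69.1 and 67.0 CPM in AAV-GFP cortex, a log2 fold change of 0.02 ± 0.07 with a 95% interval from -0.14 to 0.19. Itgb5 (Entrez gene 16419, chr16:33829665-33949338, plus strand), which pairs with the alpha V chain to bind vitronectin and in the brain is strong in microglia, had 49.9, 53.8 and 46.4 CPM in AAV-GFP-GA cortex, against 40.6, 41.1 and 44.6 CPM in AAV-GFP cortex, or 50.02 ± 3.67 CPM in AAV-GFP-GA cortex and 42.1 ± 2.2 CPM in AAV-GFP cortex (SD, n = 3 each). All 3 values of AAV-GFP-GA cortex lay above those of AAV-GFP cortex, with 46.4 CPM in AAV-GFP-GA replicate 3 next to 44.6 CPM in AAV-GFP replicate 3. This gave a log2 fold change of 0.25 ± 0.08 (95% interval 0.08 to 0.42), at an unadjusted p of 0.00796 and 0.742 after adjustment, by edgeR. This was the lowest unadjusted p of the 75 genes, and it was under 0.05 in all 6 fits that left out 1 library, from 0.00257 to 0.0482. In the fit that sets AAV-GFP replicates 1 and 2 apart from the other 4 libraries, the log2 fold change of Itgb5 was 0.16 and the unadjusted p was 0.106. Microglia markers summed to 459.9, 484.2 and 475.5 CPM in AAV-GFP-GA cortex, against 435.4, 462.8 and 426.2 CPM in AAV-GFP cortex, and their part in the values of Itgb5 was not tested.

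Itgb4, the beta chain of hemidesmosomes that also marks arteriolar endothelium and epithelia, had 15.7, 16.2 and 13.7 CPM in AAV-GFP-GA cortex, against 10.1, 12.2 and 15.0 CPM in AAV-GFP cortex, a log2 fold change of 0.29 ± 0.14 and an unadjusted p of 0.0572. AAV-GFP replicate 3, the AAV-GFP library with most intestinal markers, lay among the AAV-GFP-GA values. When AAV-GFP replicates 1 and 2 were set apart, which leaves AAV-GFP replicate 3 alone in its group, the log2 fold change was 0.03 ± 0.14. The part of intestinal reads in the values of Itgb4 was not tested. Itgb2, the leukocyte and microglial beta chain, lay between 6.12 and 8.37 CPM in AAV-GFP-GA cortex and between 5.26 and 6.87 CPM in AAV-GFP cortex, with a log2 fold change of 0.31 ± 0.16. Itgb8, an astrocyte chain that frees TGF-beta, lay between 21.9 and 27.2 CPM in AAV-GFP-GA cortex and between 19.1 and 23.4 CPM in AAV-GFP cortex, with a log2 fold change of 0.15 ± 0.11. Itgb3, of platelets, and Itgb7, of lymphocytes, had log2 fold changes of -0.11 ± 0.20 and -0.39 ± 0.50. Itgb6, an epithelial chain, was below the filter with 1, 0 and 1 reads in AAV-GFP-GA cortex and 3, 1 and 1 in AAV-GFP cortex.

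The alpha chains known mainly as laminin receptors are Itga3, Itga6 and Itga7. Itga6, a laminin receptor of endothelium, had 26.7, 32.4 and 28.1 CPM in AAV-GFP-GA cortex, against 26.0, 24.4 and 25.9 CPM in AAV-GFP cortex. All 3 values of AAV-GFP-GA cortex lay above those of AAV-GFP cortex, with a log2 fold change of 0.19 ± 0.09 and an unadjusted p of 0.0524. Itga3 and Itga7, the others of these chains, had log2 fold changes of 0.08 ± 0.10 and -0.19 ± 0.15, with overlapping groups.

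The collagen receptors are Itga1, Itga2, Itga10 and Itga11. Itga1 (Entrez gene 109700, chr13:114958079-115101964, minus strand), a receptor for type IV collagen on endothelium and smooth muscle, had 6.07, 9.69 and 7.56 CPM in AAV-GFP-GA cortex, against 6.22, 5.74 and 4.45 CPM in AAV-GFP cortex, or 7.77 ± 1.82 CPM in AAV-GFP-GA cortex and 5.47 ± 0.919 CPM in AAV-GFP cortex (SD, n = 3 each). The groups overlapped, since AAV-GFP-GA replicate 1 lay below AAV-GFP replicate 1, and AAV-GFP-GA replicate 2 was the highest library. Its log2 fold change was 0.51 ± 0.19 (95% interval 0.08 to 0.93), at an unadjusted p of 0.0232 and 0.742 after adjustment, by edgeR. Leaving out AAV-GFP-GA replicate 2 gave an unadjusted p of 0.127, and leaving out AAV-GFP replicate 3 gave 0.0797. Itga11, a fibroblast receptor for fibrillar collagen, had 2.0, 1.58 and 2.37 CPM in AAV-GFP-GA cortex, against 1.38, 1.55 and 1.27 CPM in AAV-GFP cortex. Its values in AAV-GFP-GA cortex all lay above those in AAV-GFP cortex, with a log2 fold change of 0.50 ± 0.25 and an unadjusted p of 0.0685. Itga10, of cartilage, had a log2 fold change of 0.09 ± 0.23. Itga2, which lies beside Itga1 on chromosome 13, was below the filter with 1, 5 and 2 reads in AAV-GFP-GA cortex and 1, 0 and 0 in AAV-GFP cortex.

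The remaining alpha chains bind fibronectin and related ligands. Itga4, which leukocytes use to stick to vessels, had 24.5, 21.8 and 24.3 CPM in AAV-GFP-GA cortex, against 30.7, 25.1 and 17.95 CPM in AAV-GFP cortex, a log2 fold change of -0.06 ± 0.16 with widely spread AAV-GFP values. Itga5, the classic fibronectin receptor, had a log2 fold change of 0.05 ± 0.15, Itga8 one of -0.16 ± 0.16 and Itga9 one of -0.06 ± 0.14, each with overlapping groups. Itga2b, of platelets, lay between 0.6764 and 0.9808 CPM in AAV-GFP-GA cortex and between 0.9814 and 1.02 CPM in AAV-GFP cortex, groups that did not overlap by a narrow margin, with a log2 fold change of -0.36 ± 0.30.

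Set side by side, the classes differed little. The median log2 fold change was 0.10 in the vessel basement membrane, 0.17 in the other basement membrane chains, 0.06 in the integrins, 0.01 in the fibrillar collagens and -0.07 in the other collagens, and 0.03 over all 75 tested members, of which 45 lay above 0. No test was run between classes.

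Levels between genes were compared per kb of exon, where exon length counts the bases of all annotated transcripts of a gene. The order between genes thus also depends on which transcripts are annotated. Sparc was the highest of the 80 at 60.0 CPM per kb in AAV-GFP-GA cortex and 68.0 in AAV-GFP cortex. In AAV-GFP-GA cortex it was followed by Itgb1 at 17.8, Itgb5 at 14.1 and Agrn at 12.8 CPM per kb. In AAV-GFP cortex Itgb1 was at 17.5, Itgb5 at 11.8 and Agrn at 12.5 CPM per kb, so that Agrn stood above Itgb5. The next were Col6a1, Lamc1, Col4a2, Lamb2, Col25a1, Col19a1 and Col4a1, between 3.82 and 7.03 CPM per kb in AAV-GFP-GA cortex. Among these 7 the order is not firm, since neighbours such as Col4a2 and Lamb2 differed by less than the spread of their libraries. By the mean over all 6 libraries, the first fibrillar collagen, Col11a2, stood at rank 16, and Col1a1 and Col3a1, the best known of connective tissue, at ranks 30 and 58.

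**Figure D4:**
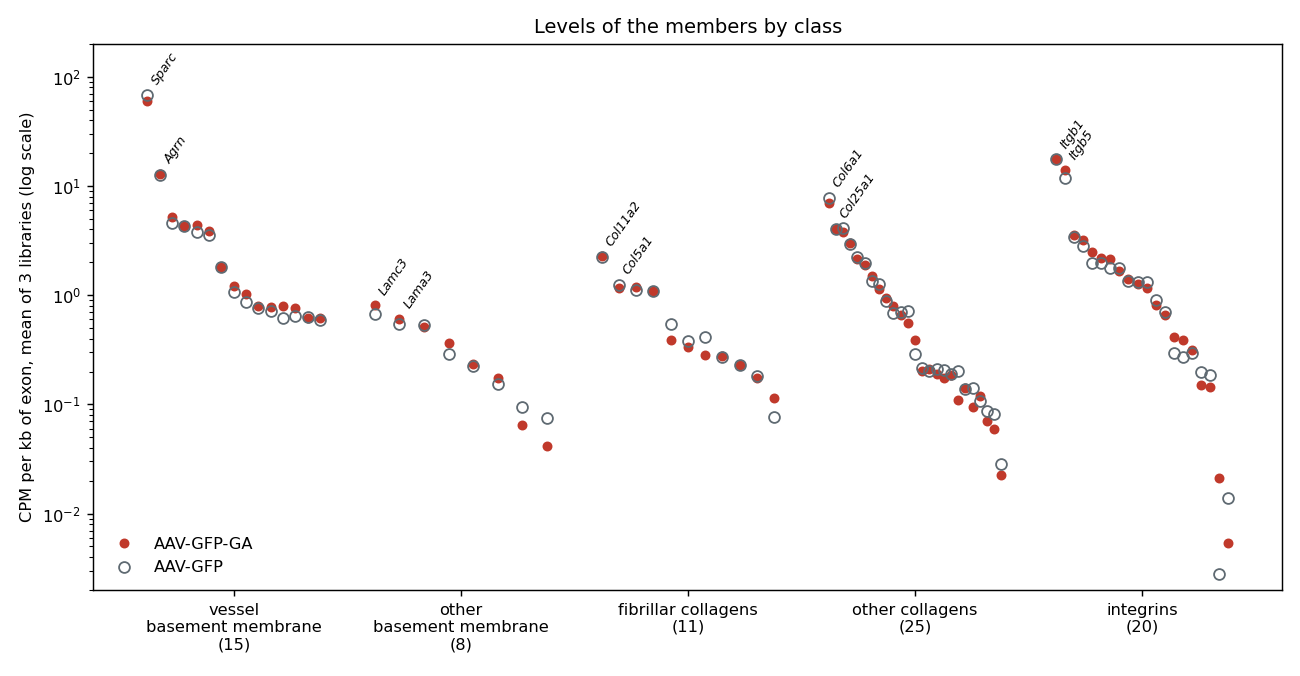
Level of 79 of the 80 genes as CPM per kb of exon on a log scale, mean of 3 libraries, with AAV-GFP-GA as filled red and AAV-GFP as open grey points; genes are ordered from high to low within a class and the number of genes drawn is under each class name. Sparc at 60.0 CPM per kb in AAV-GFP-GA cortex and 68.0 in AAV-GFP cortex tops the vessel class, and the pairs of points part visibly in the low genes.

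Promoter windows were found for 59 of the 80 genes. In the 250 bases before the start, CACCC on either strand occurred in 10 of the 12 vessel basement membrane genes with a window, 83.3%, in 66.1% of the 59 members and in 51.3% of all 27025 promoters. GGGCGG occurred in 58.3% of the 12, 52.5% of the 59 and 32.9% of all. TATAAA, the TATA box, occurred in 0 of the 12, in 8.47% of the 59 and in 13% of all. The median share of G and C was 63.2% in the 12 vessel genes, 59.6% in the 59 and 52% in all, and both of the first motifs are rich in G and C. A match describes these letters only.

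Other genes of the same pathways were read from lists of the machinery around these proteins. Of the 27 tested genes of collagen synthesis, 12 had a log2 fold change above 0 and 0 were called by edgeR, with 1 higher and 1 lower at an unadjusted p under 0.05, P4ha3 and P4ha1, subunits of the enzyme that hydroxylates proline. Its 2 most abundant genes, P4hb and Mia3, had log2 fold changes of -0.02 ± 0.05 and -0.02 ± 0.05. Of the 20 tested proteases and inhibitors of the matrix, 10 lay above 0, 0 were called and 1 was higher at an unadjusted p under 0.05, the aggrecanase Adamts1 at 0.52 ± 0.16; the abundant Timp2 and Mmp17 were at -0.06 ± 0.07 and 0.03 ± 0.07. The 3 tested integrins without a number, Itgav, Itgam and Itgal, lay between 0.11 and 0.21, with Itgav, the partner of Itgb5, at 0.11 ± 0.08 and Itgam at 0.14 ± 0.08.

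The other ligands of integrins, secreted or on cell surfaces, held the lowest p of these lists. Of 15 tested, 10 lay above 0, 0 were called, 3 were higher and 1 lower at an unadjusted p under 0.05. Fn1, fibronectin, had 65.9 ± 4.22 CPM in AAV-GFP-GA cortex and 51.3 ± 2.85 CPM in AAV-GFP cortex (SD, n = 3 each). The log2 fold change was 0.36 ± 0.07, with an unadjusted p of 4.38e-04 that became 0.581 after adjustment, by edgeR. Vtn, vitronectin, which Itgb5 binds and pericytes make, was at 0.25 ± 0.09, Tnc at 0.39 ± 0.17 and Ctgf at -0.18 ± 0.08, while Tnr, the most abundant, was at -0.0018 ± 0.0641.

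Of the 23 tested genes of integrin adhesion machinery, 14 lay above 0 and 0 were called, with 1 lower at an unadjusted p under 0.05, the kindlin Fermt1 at -1.11 ± 0.39; Ptk2b and Tln2 were at -0.0058 ± 0.0546 and 0.04 ± 0.07. Of 11 tested genes listed as other matrix receptors, 6 lay above 0, with 0 at an unadjusted p under 0.05 by edgeR. Sdc3 was at 0.05 ± 0.06 and Mag, which is also on the list of oligodendrocyte markers, at 0.07 ± 0.10. Of 19 tested proteoglycans and elastic fibre genes, 12 lay above 0 and 1 was higher at an unadjusted p under 0.05, the perineuronal net protein Bcan at 0.15 ± 0.07, beside Ncan at 0.01 ± 0.07. Of 15 genes listed for the TGF-beta axis together with beta-catenin, 9 lay above 0, with 0 at an unadjusted p under 0.05 by edgeR. Ctnnb1, which encodes beta-catenin, was at 0.02 ± 0.05 and Smad3 at 0.09 ± 0.06. No gene of these lists was called by edgeR at an adjusted p under 0.05.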

How the data were processed

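RNA sequencing of total RNA from wild-type mouse cortex was compared between 3 AAV-GFP-GA and 3 AAV-GFP libraries. Extraction used Trizol and library preparation the BGI protocol, per the labels' protocols. Tools named in the submitters' processing notes are RSEM 1.2.12 and Bowtie2 2.2.5, with genome build mm10; annotation and strand setting: not given in the sources used here. The values the authors deposited are expected counts, estimates of the reads of a gene before any scaling; 7.32% to 7.81% of the values in a library were not whole, so reads of near-identical or overlapping genes may be split or shifted between them. The 1 row that names no gene was left out.

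Counts were rounded, kept by filterByExpr (14324 genes), scaled by TMM and tested with edgeR 4.0.16 (R 4.3.3) by its two-sided quasi-likelihood test over all 6 libraries, with p-values adjusted by Benjamini-Hochberg over the tested genes and a threshold of 0.05. CPM used the scaled library sizes. Alternatives used DESeq2 1.42.0, limma 3.58.1 (voom), other scalings and filters, a replicate block and each library left out. A further term set AAV-GFP replicates 1 and 2 apart, the libraries with the lowest sums of intestinal markers. The labels name no such sets, and AAV-GFP replicate 3 also differed from these libraries by nearly lacking Y-linked reads. Exon lengths came from GENCODE M21, strands and coordinates from it and RefSeq, and promoters from RefSeq on GRCm38.p6. The edgeR fit was tested on simulated counts with known changes, which were put only into genes with more reads. Its false calls there made up a clearly larger share than the adjusted threshold allows. The genes, classes, lists and alternatives were chosen with earlier results of these data known.

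Named with full values were all tested vessel basement membrane and fibrillar collagen genes. Of each other class these were the 4 with the highest mean CPM, those at an unadjusted p under 0.05 and the 2 with the largest fold change. Context lists gave counts and their 2 most abundant genes. Values of some genes are not reported here. At 16748754 to 17576017 counts per library, genes of few reads could not be resolved.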

Additional observations from a re-analysis of the deposited data

How the results depend on the processing

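No alternative called any of the 80 genes, and the lowest adjusted p of a named gene in any of the 14 alternatives was 0.0883, for Itgb5 without AAV-GFP replicate 3. With no filter on low counts, 8 of the 80 genes had an unadjusted p under 0.05 by edgeR, 6 of them higher. The share over all genes was not worked out for that fit, so this count has no background beside it. Over the fits without 1 library, the count of genes under 0.05 ran from 4 to 12, with 2 to 10 higher and 2 to 4 lower. The share over all genes was worked out only without AAV-GFP-GA replicate 1, AAV-GFP replicate 1 or AAV-GFP replicate 3, and not by direction. The other counts have no background beside them. The highest count came without AAV-GFP replicate 3, where 19.8% of all tested genes were under 0.05. With AAV-GFP replicates 1 and 2 set apart, the median was 0.031 in the other basement membrane chains and -0.10 in the fibrillar collagens. It was 0.0755 in the vessel basement membrane, with 9 of 15 above 0, and 0.083 in the laminin chains, with 9 of 11. In the other collagens it was -0.158, with 4 of 23 above 0, and in the integrins 0.0711, with 11 of 18. The same term put Agrn at -0.073, Col11a2 at -0.19, Col18a1 at -0.067, Col20a1 at -0.10, Col4a2 at -0.087, Col4a5 at 0.048, Itga4 at 0.39 and Lama5 at -0.22, signs opposite to those given above; the cause was not tested. Without 1 library, medians ran from -0.051 to 0.21 in the other basement membrane chains, from -0.11 to 0.025 in the fibrillar collagens and from 0.034 to 0.10 in the integrins.

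Of 44 named genes, 25 kept their sign in every alternative. Over the fits without 1 library, 19 changed sign in some fit. Their lowest and highest values were Agrn -0.019 to 0.098, Col11a2 -0.041 to 0.17, Col15a1 -0.17 to 0.17, Col18a1 -0.10 to 0.20, Col1a1 -0.11 to 0.27, Col1a2 -0.084 to 0.20, Col20a1 -0.050 to 0.064, Col25a1 -0.072 to 0.074, Col3a1 -0.27 to 0.31, Col4a2 -0.071 to 0.062, Col4a5 -0.12 to 0.095, Col5a1 -0.29 to 0.018, Col5a2 -0.11 to 0.16, Col5a3 -0.23 to 0.068, Col6a1 -0.29 to 0.060, Itga4 -0.24 to 0.13, Itgb1 -0.018 to 0.095, Lama5 -0.13 to 0.20 and Lamb1 -0.10 to 0.11. The replicate block gave 6 of the 75 genes at an unadjusted p under 0.05 by edgeR, 4 of them higher, and called 0. For the block, too, the share over all genes was not worked out. Same-numbered deviations from the group means correlated at 0.104, -0.121 and 0.065. AAV-GFP-GA replicate 1 correlated best with AAV-GFP replicate 1, at 0.104. AAV-GFP-GA replicate 2 correlated best with AAV-GFP replicate 1 and AAV-GFP-GA replicate 3 with AAV-GFP replicate 2, at 0.14 each. Taking deviations from means of 3 libraries ties these values together, so they cannot decide whether the shared numbers pair the libraries. With 3 libraries a group, the 95% interval stayed within 1.5-fold for 44 of the 75 tested genes, given the spread between these libraries. Other fits could fall outside it. With AAV-GFP replicates 1 and 2 set apart, Col6a1 was at -0.49, outside its interval of -0.46 to 0.16. Itga4 was at 0.39, outside -0.41 to 0.28.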

Other observations

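Markers of the cell types around these genes were read as counts, with no test of a list, and edgeR called 0 of them at an adjusted p under 0.05. Genes among the 2 most abundant of each list are given with their log2 fold change and its standard error. Of the endothelium markers tested, 13 of 15 had a log2 fold change above 0, with Slc2a1 at 0.48 ± 0.12 and Flt1 at 0.41 ± 0.08. Pericyte markers lay above 0 in 7 of 9, with Rgs5 at 0.05 ± 0.08 and Pdgfrb at 0.14 ± 0.09. Vascular smooth muscle markers summed to 33.4, 40.1 and 40.1 CPM in AAV-GFP-GA cortex, against 40.3, 38.3 and 33.3 CPM in AAV-GFP cortex, and 3 of 5 lay above 0, with Mylk at -0.13 ± 0.10 and Acta2 at -0.12 ± 0.16. Fibroblast and meninges markers lay above 0 in 7 of 15, with Igf2 at -0.17 ± 0.19 and Pdgfra at -0.04 ± 0.06.

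Astrocyte markers summed to 4860, 5048 and 5579 CPM in AAV-GFP-GA cortex, against 5142, 5212 and 4906 CPM in AAV-GFP cortex, and 6 of 8 lay above 0, with Slc1a2 at -0.04 ± 0.07 and Aldoc at 0.09 ± 0.07. Oligodendrocyte markers summed to 6672, 6734 and 6163 CPM in AAV-GFP-GA cortex, against 6316, 6686 and 6633 CPM in AAV-GFP cortex, and 5 of 7 lay above 0, with Mbp at 0.07 ± 0.05. For microglia 7 of 10 lay above 0, with Csf1r at 0.13 ± 0.05, and for neurons 4 of 8, with Snap25 at 0.01 ± 0.05 and Syt1 at -0.02 ± 0.05. Blood cell markers summed to 602.7, 424.4 and 433.8 CPM in AAV-GFP-GA cortex, against 691.5, 377.7 and 312.8 CPM in AAV-GFP cortex, with 4 of 7 above 0 and Hbb-bs at 0.03 ± 0.27 and Hba-a1 at 0.12 ± 0.23. Choroid plexus markers lay above 0 in 0 of 7, with Ttr at -0.90 ± 0.76 and Kl at -0.81 ± 0.45, and intestinal markers in 7 of 8, with Krt8 at 0.40 ± 0.44 and Krt18 at -0.49 ± 0.48. The sums of smooth muscle, astrocyte, oligodendrocyte and blood cell markers overlapped between the groups.

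The 3 genes that edgeR called among all those tested were Nes, Klf2 and Klf4, none of them a member of the 80. They were picked because they were called, and their log2 fold changes were 1.26 ± 0.11, 0.90 ± 0.09 and 1.18 ± 0.11.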
